A study of Rattus norvegicus with 11 samples.

Results

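The glutamate transport and metabolism genes followed here are 9 genes that make, break down, package or clear the main excitatory transmitter of the cortex. They are Glud1, Glul, Got1 and Got2, the enzymes, Slc1a1, Slc1a2 and Slc1a3, the transporters of the cell surface, and Slc17a6 and Slc17a7, the transporters of synaptic vesicles. All probes of the array that are no controls and carry 1 of these gene names were taken, which gave 15 of 41012 different probes. Each of the 15 was detected, that is scored well above background by the scanner software, on all 11 arrays, and none was saturated. Of the 15, 14 could be tested.

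RNA came from the medial prefrontal cortex of male rats aged 4 months, with 1 single-colour Agilent array per rat. The heroin group (n = 6) had self-administered heroin in 14 daily sessions of 3 h, in which 10 licks on the active spout brought an infusion. The yoked saline group (n = 5) had received saline infusions set by a heroin partner. All rats of both groups then had 14 days of abstinence and a 90-min extinction session without drug, after which the tissue was taken. The comparison asks how the cortex of the groups differed after both. The groups differed in heroin received and in control over the infusions, and these cannot be told apart. The paper also reports more goal-directed spout responses in heroin than in yoked rats during this session. That difference in behaviour cannot be told apart from the others. The design holds no rat that skipped the extinction session among these arrays, so effects of abstinence and of the session cannot be told apart. Where the methods speak of 12 arrays, the 11 described are those analysed here.

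Glutamate released by neurons is taken up mainly by astrocytes, which carry the transporters Slc1a2 (GLT-1) and Slc1a3 (GLAST) and turn glutamate into glutamine with glutamine synthetase, encoded by Glul. Glutamine returns to neurons, where it is made into glutamate again and loaded into vesicles by Slc17a7 (VGLUT1), the main vesicular transporter of cortical neurons, and Slc17a6 (VGLUT2), the main one of thalamic neurons. Slc1a1 (EAAC1) is the neuronal surface transporter. Glutamate dehydrogenase (Glud1) and the aspartate aminotransferases of cytosol (Got1) and mitochondria (Got2) link glutamate to the tricarboxylic acid cycle in both cell types.

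Signal is given in array medians, the deposited background-subtracted intensity divided by the median of that array's probes. Changes are differences in mean log2 signal, heroin minus saline, with limma's standard error. A probe passed when its unadjusted limma p was under 0.02 and its change at least 1.4-fold, which are the limits in the methods. Values of different probes are not read as transcript levels against each other, since a probe's brightness depends on its own sequence.

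The scaling sets the zero of every change. With each array divided by its 50th percentile, the median of all 25555 tested probes was 0.18 higher in heroin rats, and 78.7% of them had the higher mean there. After quantile normalization the median was 0.01 and the share 53.2%. Same-numbered heroin and saline arrays shared a scan time in 5 pairs, with heroin rat 1 left without a partner, so differences are also given within these pairs. In each case the heroin array lay at position 4 and the saline array at position 3 of its slide, so group and position cannot be told apart. The median intensity was 42.7 to 78.3 on heroin arrays and 58.0 to 83.2 on saline arrays, with 28185 to 33209 and 30098 to 33835 probes detected. Heroin rat 6 had the dimmest array and the lowest median correlation with the others (r = 0.967, against at least 0.977 for each other array).

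The probes of the genes on which the results turn most are shown as the array files give them, each 60 bases long, with positions in build rn3. They are the Glud1 pair that carried the largest changes, and the probes of Got1, Got2 and Slc17a7, among which Got2 followed each of the other two across rats. No base is capitalised because no part of a probe was singled out.
Glud1 A_44_P259908 (chr16:9998012-9998071, plus strand): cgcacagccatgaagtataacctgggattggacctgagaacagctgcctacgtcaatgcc
Glud1 A_44_P472500 (chr16:9994288-9995258, plus strand): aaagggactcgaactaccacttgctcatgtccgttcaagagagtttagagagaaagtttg
Got1 A_44_P388973 (chr1:247459063-247461271, plus strand): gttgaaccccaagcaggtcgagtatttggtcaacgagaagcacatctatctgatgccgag
Got2 A_44_P243238 (chr19:9659097-9659156, plus strand): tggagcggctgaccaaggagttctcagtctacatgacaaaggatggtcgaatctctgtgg
Slc17a7 A_44_P505721 (chr1:95727218-95727277, plus strand): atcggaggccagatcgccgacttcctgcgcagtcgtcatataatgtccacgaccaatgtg
The second Glud1 probe spans 971 bases of the genome and the Got1 probe 2209, far more than their own length, so each of these matches a spliced transcript across a gap. The 2 Glud1 sequences lie apart on the gene and share no position.

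Across the 9 genes, 1 probe passed both limits, the Glud1 probe A_44_P472500, which was higher in heroin rats. This is 1 of 14 tested probes, where 1.79% of all tested probes passed in that direction and 2.72% in either. The direction of the calls depended on the scaling, with 457 of 694 higher in heroin rats here, 218 of 457 after quantile normalization, 33 of 779 with scaling to the 75th percentile and 42 of 675 with scaling to the median of detected probes. Glud1 had been on the study's own list, chosen on these arrays, so its call is not independent evidence. The paper also measured Glud1 by RT-qPCR in aliquots of the same RNA and reports that this did not bear out a difference. All 14 probes had the higher mean in heroin rats (78.7% of all tested probes did), by 0.13 to 0.53 with a median of 0.29. Of the 14, 13 lay above the 0.18 of all tested probes. After quantile normalization 12 of 14 were higher (53.2% of all tested probes), and their median change was 0.05, against 0.01 for all. None passed both limits then (1.79% of all tested probes passed in either direction). The shift between scalings was not the same for every probe. Slc1a3 A_42_P533183, brighter than 98.9% of tested probes, went from 0.24 to 0.00, and Slc17a7, brighter than 42.0%, from 0.31 to 0.15. The 0.18 is thus no exact reference for each probe, and the part of brightness was not tested. No member probe had an adjusted p under 0.05 by limma with Benjamini-Hochberg adjustment, nor did any probe of the array, and the members' adjusted p ran from 0.263 to 0.667. An unadjusted limma p under 0.02 was found for 2 member probes (7.27% of all tested probes), both of Glud1, and one under 0.05 for 3 (18.5% of all), or for 1 after quantile normalization (7.71% of all). The methods' t-test put 1 member probe past both limits (1.21% of all) and 4 at p under 0.05 (16.1% of all). The 14 probes belong to 9 genes and are not independent of each other.

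**Figure D1:**
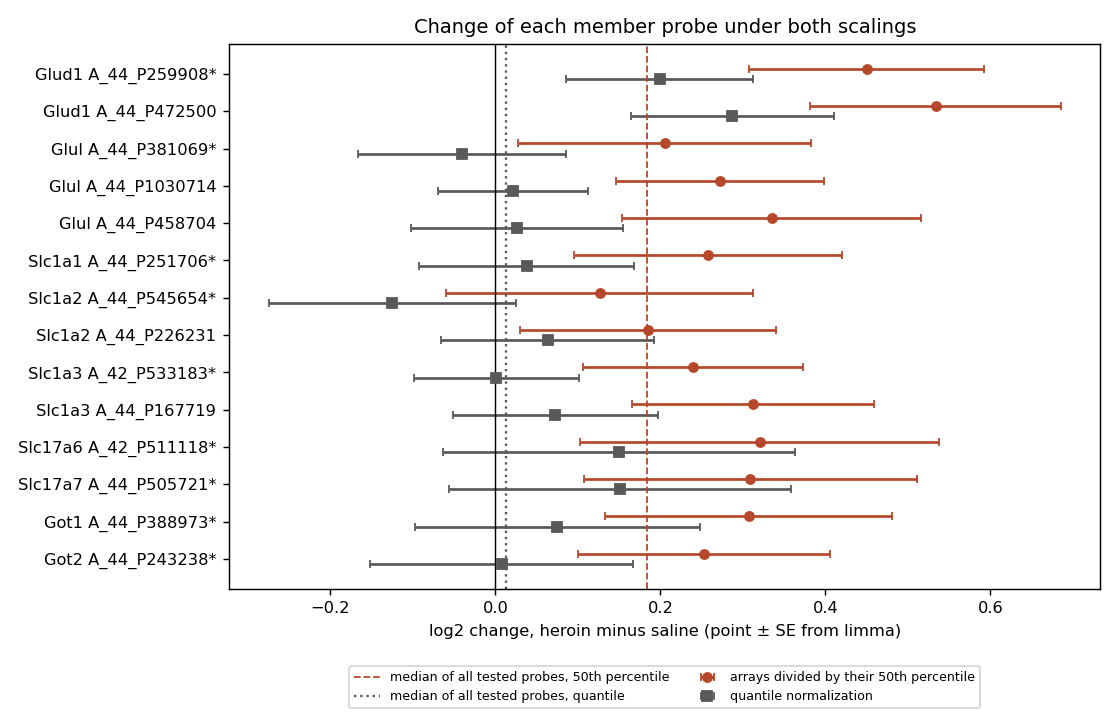
Change of the 14 tested probes on the log2 scale, heroin minus saline (horizontal axis; points with bars of 1 limma standard error), with each array divided by its 50th percentile (red circles) and after quantile normalization (grey squares). Dashed and dotted lines mark the median of all 25555 tested probes, 0.18 and 0.01, an asterisk marks the probe used for its gene, and the Glud1 pair lies farthest from the lines in both sets.

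Glud1, the mitochondrial enzyme that converts glutamate to 2-oxoglutarate and ammonia, had the largest changes of the 9 genes. At A_44_P259908 the heroin rats ranged from 56.0 to 78.0 array medians with a median of 69.5, and the saline rats 2, 3, 4, 5 and 6 had 43.6, 59.5, 52.8, 55.3 and 41.1. At A_44_P472500 the heroin rats ranged from 45.1 to 67.6 with a median of 56.9, and the same saline rats had 32.2, 47.1, 41.3, 43.3 and 32.8. At each probe the only heroin rat below the highest saline rat was rat 5, so the groups overlapped by a single animal. Groups without overlap, with the heroin rats higher, were seen at 1.66% of all tested probes and at none of the members'.

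The mean of A_44_P259908 was 68.8 ± 9.40 (SD, n = 6) in heroin and 50.4 ± 7.83 (SD, n = 5) in saline rats, a change of 0.45 (SE 0.14), or 1.37-fold, just under the limit (limma p = 0.00647, adjusted p = 0.263, exact permutation p = 0.00866). For A_44_P472500 the means were 56.9 ± 9.27 and 39.4 ± 6.60, a change of 0.53 (SE 0.15), or 1.45-fold (limma p = 0.00320, adjusted p = 0.263, exact permutation p = 0.00649). The smallest p that the divisions of these rats into 6 and 5 allow is 0.00216. Relative to the median of all tested probes the changes were 0.27 and 0.35. After quantile normalization they were 0.20 (limma p = 0.104, exact permutation p = 0.0779) and 0.29 (limma p = 0.0369, exact permutation p = 0.0519), and the second probe no longer passed. A_44_P259908 passed both limits when heroin rat 5, saline rat 3 or saline rat 5 was left out, with changes of 0.51, 0.51 and 0.49. A_44_P472500 lost its call when heroin rat 3, saline rat 2 or saline rat 6 was left out, with changes of 0.48, 0.47 and 0.47. Over all probes 694 passed with all rats, 2352 without saline rat 5 and 343 without saline rat 2.

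Within arrays scanned together, the Glud1 signal was higher in the heroin rat in 5 of 5 pairs at both probes. The share of all tested probes higher in 5 of 5 pairs was not taken. With this scaling 78.7% of them had the higher mean in heroin rats. At A_44_P472500 the differences were 0.64, 0.52, 0.61, 0.06 and 0.63 for the pairs 2 to 6, and after quantile normalization 0.24, 0.18, 0.48, 0.23 and 0.14. With the pair as a block the changes were 0.42 (SE 0.17) and 0.49 (SE 0.17), both at a limma adjusted p = 0.454, and the second probe again passed both limits. The deviations of both probes from their group means correlated at r = 0.98 over 11 rats, a description of probes of 1 gene in the same RNA.

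The brightest Glud1 probe, A_43_P14157, was marked by the software as non-uniform or outlying on 8 of 11 arrays, all 6 heroin arrays among them, and could not be fitted. Its usable values, from saline rats 2, 4 and 5, were 182.1, 275.1 and 250.0 array medians. With the marked spots kept, its change was 0.49 (SE 0.17, limma adjusted p = 0.263), and it passed both limits beside A_44_P472500.

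**Figure D2:**
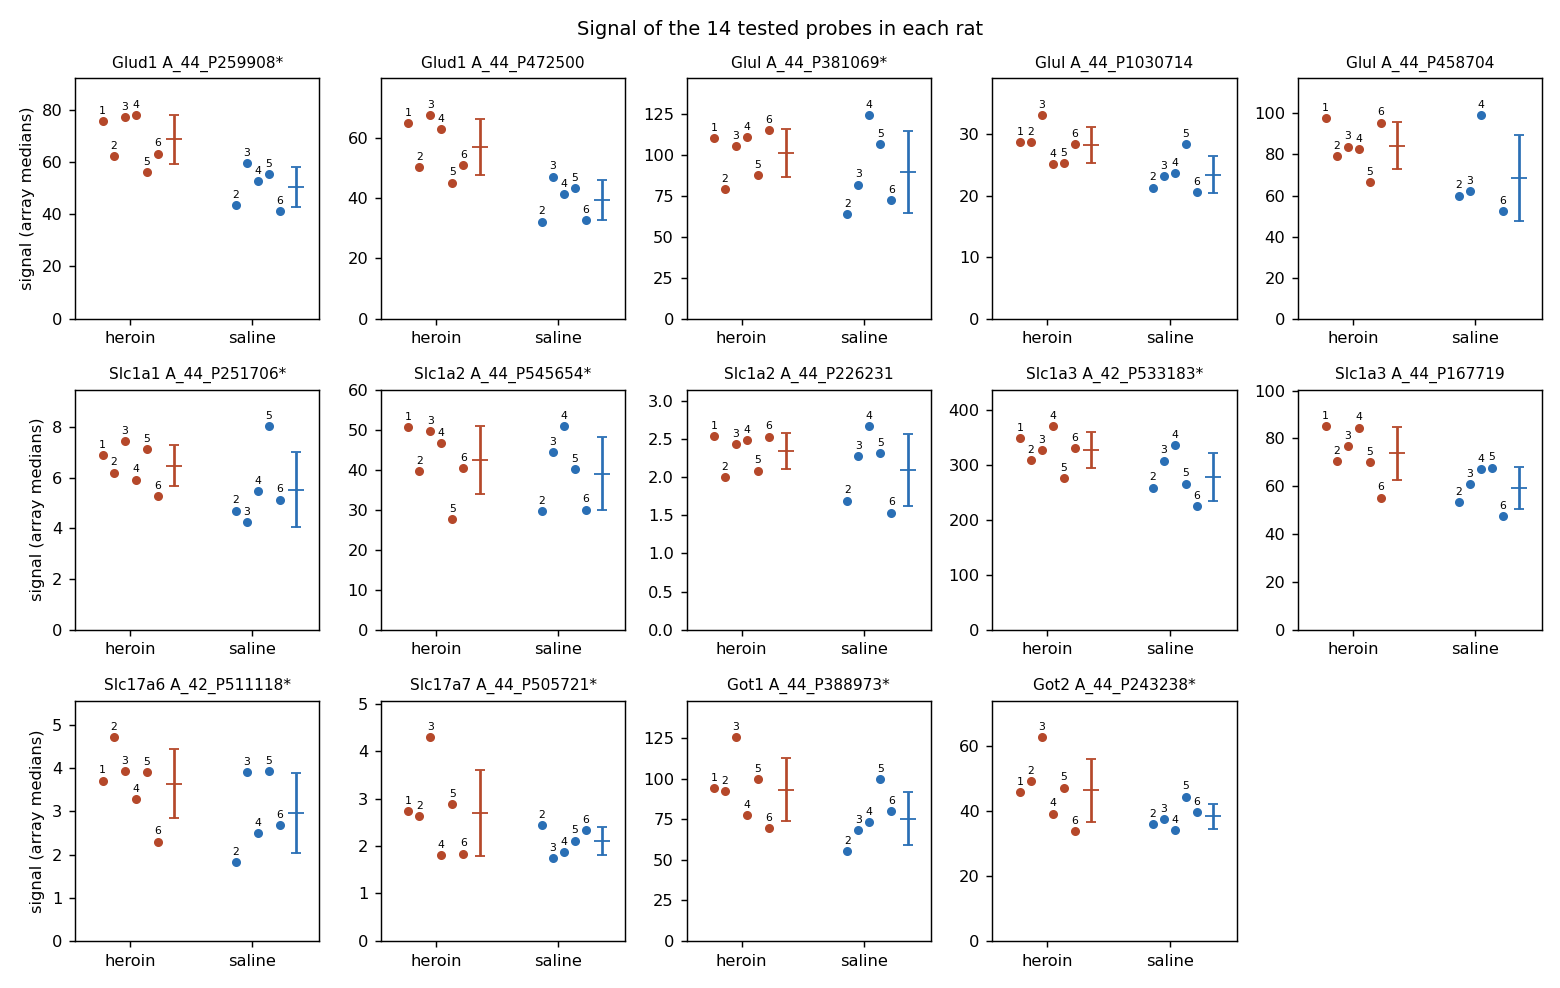
Signal in array medians (vertical axes, from 0) of each of the 14 tested probes in the 6 heroin (red) and 5 saline (blue) rats, numbered by replicate, with mean and SD beside the points. The groups overlap in every panel, in the Glud1 panels by heroin rat 5 alone.

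Glul, the astrocytic enzyme that makes glutamine from glutamate and ammonia, did not pass at any of its 3 probes. At A_44_P381069, its brightest, the heroin rats ranged from 78.9 to 115.0 array medians with a median of 107.6, and the saline rats had 63.7, 81.7, 124.1, 106.3 and 72.4. Saline rat 4 was the highest of all 11. The means were 101.1 ± 14.5 (SD, n = 6) and 89.6 ± 25.0 (SD, n = 5), a change of 0.21 (SE 0.18, limma p = 0.266, exact permutation p = 0.294), which turned to -0.04 after quantile normalization. The other probes changed by 0.27 (A_44_P1030714, limma p = 0.0480, exact permutation p = 0.0303) and 0.33 (A_44_P458704, limma p = 0.0862, fitted without saline rat 5, whose spot was marked), and by 0.02 and 0.03 after quantile normalization. Without saline rat 4, A_44_P458704 changed by 0.53 and passed both limits, and without saline rat 6 it changed by 0.22. With each rat left out, 343 to 2352 of all probes passed, against 694 with all rats. The deviations of A_44_P381069 and A_44_P1030714 correlated at r = 0.49 over 11 rats, well below the value for Glud1. The array files place A_44_P1030714 on chromosome 12 and give no place for the others, so these probes may not all read 1 transcript, which was not tested.

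The astrocytic uptake carriers Slc1a2 and Slc1a3 did not pass either. For Slc1a3, A_42_P533183 ranged from 275.9 to 370.5 array medians in heroin rats with a median of 329.2, and read 258.8, 307.8, 335.7, 266.1 and 224.7 in saline rats. Its means were 327.2 ± 32.7 (SD, n = 6) and 278.6 ± 43.5 (SD, n = 5), a change of 0.24 (SE 0.13, limma p = 0.0922, exact permutation p = 0.0606). The second Slc1a3 probe, A_44_P167719, changed by 0.31 (SE 0.15, limma p = 0.0507, exact permutation p = 0.0519). Both were higher in the heroin rat in 5 of 5 pairs, by 0.05 to 0.56 and 0.05 to 0.40, but after quantile normalization in 2 and 4 of 5, with changes of 0.00 and 0.07. The share of all tested probes higher in 5 of 5 pairs was not taken here either.

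Slc1a2 had the smallest change of the 9 genes. A_44_P545654 ranged from 27.8 to 50.6 array medians in heroin rats with a median of 43.6, and read 29.7, 44.4, 50.9, 40.2 and 30.1 in saline rats, so that the lowest value was a heroin rat's and the highest a saline rat's. The means of 42.5 ± 8.52 (SD, n = 6) and 39.1 ± 9.21 (SD, n = 5) differed by 0.13 (SE 0.19, limma p = 0.508, exact permutation p = 0.545), below the median of all probes, and by -0.12 after quantile normalization. The other Slc1a2 probe, A_44_P226231, changed by 0.19 (SE 0.15), and by 0.06 after quantile normalization. Higher and lower thus depended on the scaling for Slc1a2 and Glul.

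None of the 3 neuronal genes passed. Slc1a1, read by A_44_P251706, ranged from 5.28 to 7.43 array medians in heroin rats with a median of 6.54, and read 4.70, 4.24, 5.46, 8.03 and 5.13 in saline rats, the highest of all being saline rat 5. Its change was 0.26 (SE 0.16, limma p = 0.134, exact permutation p = 0.154), or 0.04 after quantile normalization. Slc17a6, read by A_42_P511118, ranged from 2.30 to 4.72 in heroin rats with a median of 3.81, and read 1.82, 3.92, 2.50, 3.93 and 2.69 in saline rats. Its change was 0.32 (SE 0.22, limma p = 0.162, exact permutation p = 0.229), or 0.15 after quantile normalization, and the pair of rats 2 differed by 1.38 while the pair of rats 6 differed by -0.22.

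Slc17a7, which fills the vesicles of most cortical glutamate neurons, ranged from 1.81 to 4.29 array medians in heroin rats with a median of 2.68. The saline rats had 2.44, 1.75, 1.87, 2.11 and 2.33. These values come from A_44_P505721, which was brighter than 42.0% of tested probes, and how well it reads the transcript was not tested. Heroin rat 3 stood highest, while heroin rats 4 and 6 lay within the saline range. The means were 2.70 ± 0.90 (SD, n = 6) and 2.10 ± 0.29 (SD, n = 5), a change of 0.31 (SE 0.20, limma p = 0.146, exact permutation p = 0.203), or 0.15 after quantile normalization. Without heroin rat 3 the change was 0.16, so that rat alone carried much of it.

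The aminotransferases gave like pictures. Got1, the cytosolic enzyme, ranged from 69.5 to 125.6 array medians in heroin rats with a median of 93.4, and read 55.4, 68.5, 73.2, 99.6 and 80.2 in saline rats. Got2, the mitochondrial enzyme, ranged from 33.8 to 62.6 with a median of 46.5, against 36.0, 37.4, 34.1, 44.4 and 39.6. For both genes heroin rat 3 was the highest, heroin rat 6 the lowest of the heroin group and saline rat 5 the highest of the saline group. The changes were 0.31 (SE 0.17, limma p = 0.0989, exact permutation p = 0.130) for Got1 and 0.25 (SE 0.15, limma p = 0.120, exact permutation p = 0.121) for Got2, and 0.07 and 0.01 after quantile normalization. The heroin rat was higher in 4 of 5 pairs for both, the exception being the pair of rats 6.

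**Figure D3:**
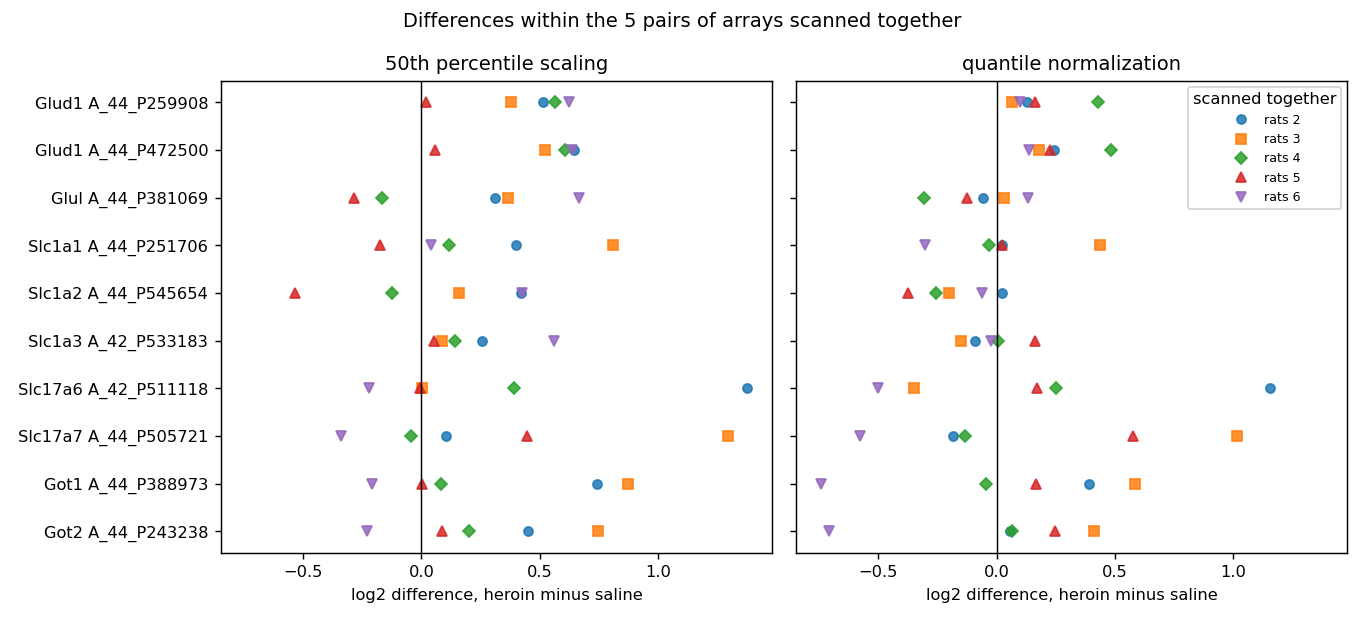
Difference on the log2 scale, heroin minus saline rat (horizontal axes), within the 5 pairs of arrays scanned together, for the probe used for each gene and the second Glud1 probe, with arrays divided by their 50th percentile (left) and after quantile normalization (right). The 5 Glud1 differences lie right of 0 in both panels, while those of every other gene fall on both sides of 0 in the right panel.

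Neuronal and astrocytic genes were set side by side within each rat. The mean log2 signal of Slc1a1, Slc17a6 and Slc17a7 was 0.30 higher in heroin than in saline rats, and that of Glul, Slc1a2 and Slc1a3 was 0.19 higher, about the 0.18 of all probes. These neuronal probes were the dimmer, brighter than 61.3%, 48.8% and 42.0% of tested probes, in that order. The astrocytic ones were brighter than 95.1%, 88.9% and 98.9%. Cell type and probe brightness therefore cannot be told apart in this contrast. The neuronal minus the astrocytic mean ranged from -5.36 to -4.34 in heroin rats with a median of -4.75, and read -4.84, -5.08, -5.45, -4.69 and -4.63 in saline rats. The groups overlapped along most of this range. The difference between groups was 0.11 on the log2 scale, beside SDs of 0.41 (n = 6) and 0.33 (n = 5), and is a description with no test. It was 0.17 after quantile normalization, 0.09 without Slc17a6 and -0.02 without saline rat 4, so the direction rested on that rat. In bulk tissue, more cells of a type and more RNA per cell cannot be told apart.

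The marker genes of both cell types moved about as all probes did. Of 9 astrocyte markers 8 had a tested probe, 6 were higher and none passed, with a median change of 0.17 (-0.02 after quantile normalization) and a summed signal of 171.8 to 336.2 array medians in heroin and 152.6 to 235.6 in saline rats. Of 7 neuron markers 5 had a tested probe, all 5 were higher and none passed, with a median of 0.19 (-0.03) and sums, over the 4 of them usable on every array, of 384.0 to 558.4 and 337.1 to 471.2. The excitatory neuron markers with a probe, Neurod2, Camk2a and Nrgn, were detected on all arrays and had a median change of 0.30 (0.05). Oligodendrocyte markers varied most between rats of a group, from 75.9 to 269.2 in heroin and from 82.7 to 255.7 in saline rats, with a median change of -0.01 (-0.25) over the 4 tested. Interneuron markers had a median change of 0.21 (-0.03), and 1 of the 5 tested, Vip, passed with a change of 0.49, but not after quantile normalization, where its change was 0.25. Of the microglial markers 4 were tested and of the endothelial 3, with median changes of 0.23 (-0.01) and 0.10 (-0.15) and none past the limits. Markers of neighbouring regions were also detected and none passed, with median changes of -0.02 (-0.19) for 4 of the striatum, 0.16 (0.13) for 2 of the thalamus and 0.03 (-0.06) for 1 of the olfactory bulb. The part of cell makeup in the results above was not tested.

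**Figure D4:**
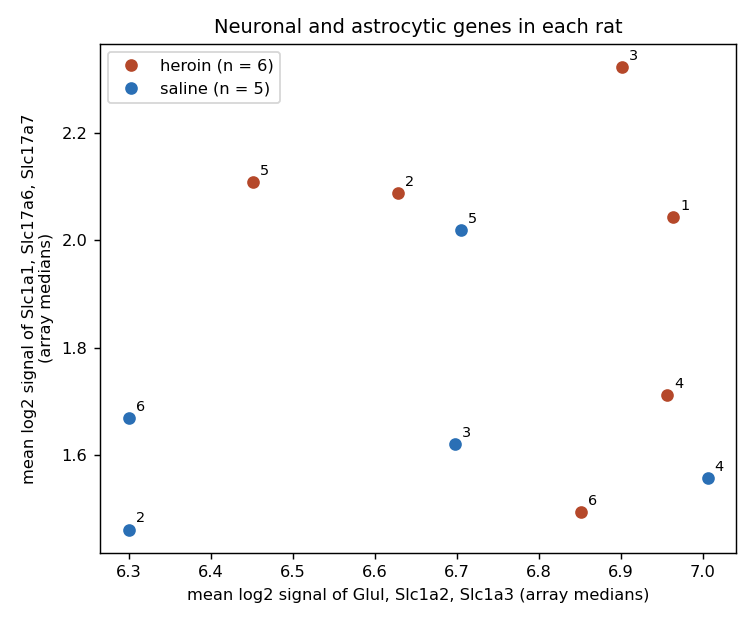
Mean log2 signal of the neuronal genes Slc1a1, Slc17a6 and Slc17a7 (vertical) against that of the astrocytic genes Glul, Slc1a2 and Slc1a3 (horizontal), in log2 array medians, for each of the 11 rats, numbered by replicate. Heroin rats 1, 2, 3 and 5 lie above all saline rats on the vertical axis, heroin rats 4 and 6 among them, and the groups overlap on the horizontal axis.

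Some of the 9 genes varied together from rat to rat. Correlations were taken between the deviations of the 11 rats from their group means, for all 36 pairs of genes, with exact within-group permutation p-values and Benjamini-Hochberg adjustment over the 36. The astrocytic carriers varied with Glud1. Slc1a2 correlated with Glud1 at r = 0.88 (rho = 0.77, exact p = 0.00125, adjusted p = 0.015) and with Slc1a3 at r = 0.88 (rho = 0.85, exact p = 0.00124, adjusted p = 0.015), and Glud1 with Slc1a3 at r = 0.79 (rho = 0.78, exact p = 0.00926, adjusted p = 0.0476). Without the 2 rats farthest from the median these were 0.80, 0.89 and 0.58, and after quantile normalization 0.74, 0.72 and 0.72, with none at an adjusted p under 0.05. By exact permutation of rho, adjusted likewise, Slc1a2 with Slc1a3 passed (adjusted p = 0.0483). Glud1 passed by rho with neither Slc1a2 nor Slc1a3 (both adjusted p = 0.0654). Glul, the remaining astrocytic gene, passed with none of them, at r = 0.73 with Slc1a2 (exact permutation, adjusted p = 0.0947), 0.68 with Slc1a3 and 0.61 with Glud1, and 0.49, 0.21 and 0.15 after quantile normalization.

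The aminotransferases varied with each other and with some neuronal genes. Got1 and Got2 correlated at r = 0.87 (rho = 0.87, exact p = 0.000880, adjusted p = 0.015), and at 0.91 without the 2 farthest rats. Slc17a7 and Got2 correlated at r = 0.85 (rho = 0.63, exact p = 0.00877, adjusted p = 0.0476), and at 0.69 without the 2 farthest rats. Slc1a1 correlated with Got1 at r = 0.83 (rho = 0.86, exact p = 0.00249, adjusted p = 0.0224) and with Got2 at r = 0.65 (rho = 0.74, exact p = 0.00642, adjusted p = 0.0463). Of these, Got1 with Got2 (r = 0.87) and Slc17a7 with Got2 (r = 0.88) kept an adjusted p under 0.05 after quantile normalization, 0.0438 for both. Slc17a6 passed with neither Got1 (r = 0.70) nor Got2 (r = 0.64), and Slc17a7 not with Got1 (r = 0.63). These calls are by Pearson r. By exact permutation of rho, adjusted likewise, Slc17a6 with Got2 passed (rho = 0.75, adjusted p = 0.0489). Got1 with Got2 and with Slc1a1 also passed by rho (both adjusted p = 0.0340). Got2 with Slc17a7 (adjusted p = 0.180) and with Slc1a1 (adjusted p = 0.0654) did not. The neuronal genes correlated with each other at 0.19 to 0.46, and none of these 3 pairs passed.

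Between astrocytic and neuronal genes no correlation passed. The 9 pairs of an astrocytic and a neuronal gene had a median r of -0.02, from -0.46 to 0.34, and none had an adjusted p under 0.05. Arrays of a scan pair are too few to recompute a correlation within a pair. Array brightness differed between the rats, and its part in the correlations was not tested. Without heroin rat 6, the dimmest array, r was 0.83 for Got1 with Got2, 0.80 for Slc17a7 with Got2 and 0.80 for Slc1a1 with Got1. It fell to 0.57 for Slc1a1 with Got2 and to 0.45 for Slc17a6 with Got2. For Slc1a2 it was 0.89 with Glud1 and 0.88 with Slc1a3, and for Glud1 with Slc1a3 0.82.

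**Figure D5:**
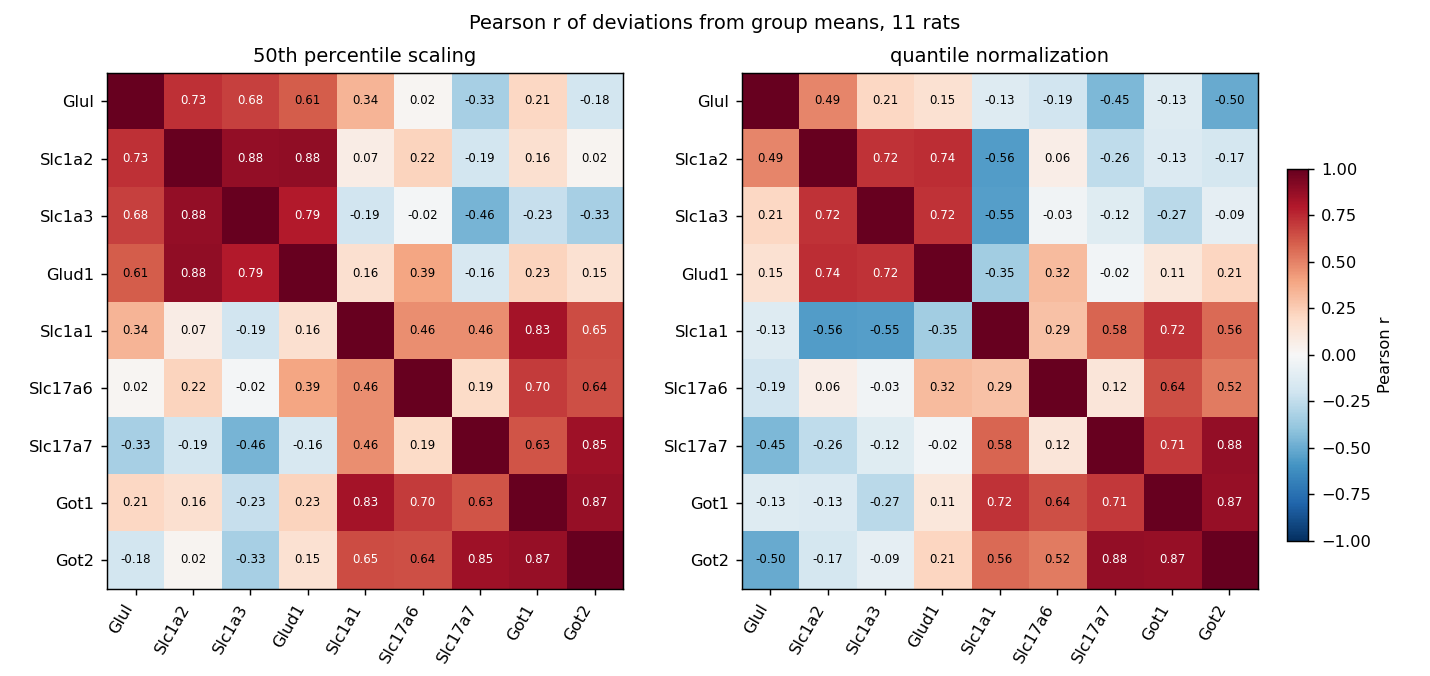
Pearson r between the genes' deviations from group means over 11 rats, from -1 (blue) to 1 (red), with arrays divided by their 50th percentile (left) and after quantile normalization (right). In the left panel the pairs of Glul, Slc1a2, Slc1a3 and Glud1 at the upper left have r from 0.61 to 0.88. Those of Got1 or Got2 with each other and with Slc1a1, Slc17a6 and Slc17a7 at the lower right have r from 0.63 to 0.87. Of all these, 7 pairs passed by Pearson r.

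Among 4984 other tested genes with a symbol, those whose signal followed Slc1a2 most closely over the 11 arrays were Ptprz1 (r = 0.97), Ybx1 (r = 0.95) and Gcsh (r = 0.95). Those that followed Slc17a7 were Coro2a (r = 0.96), Trfp (r = 0.95) and Ppp2r5b (r = 0.95). These values, over all rats of both groups on shared arrays, are the highest of a long search and carry no test.

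Of 44 other genes of glutamate and glutamine handling, 31 had a probe by that name and 29 were tested. None passed both limits in either direction (1.79% of all tested probes passed higher and 0.927% lower), 26 had the higher mean in heroin rats (78.7% of all tested probes did), and their median change was 0.20 against 0.18 for all probes. After quantile normalization 18 of 29 were higher (53.2% of all) and none passed. At an unadjusted limma p under 0.05 there were 5 of 29, where 18.5% of all tested probes had one. Changes ran from -0.51 for Slc17a8 to 0.48 for Slc25a22.

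The glutamine carriers Slc38a1 and Slc38a3 changed by 0.14 (SE 0.27) and 0.19 (SE 0.14), and by -0.06 and 0.01 after quantile normalization. Without heroin rat 6, Slc38a1 changed by 0.41 (SE 0.14) and did not pass. Slc17a8 (VGLUT3), the vesicular transporter of a minority of cortical cells, had the lower mean in heroin rats, 0.84 ± 0.28 against 1.22 ± 0.44, a change of -0.51 (SE 0.30, limma p = 0.107, exact permutation p = 0.186) and of -0.54 after quantile normalization. Without saline rat 5 its change was -0.77 and passed both limits, and without heroin rat 6 it was -0.32. Of all probes 2352 passed without saline rat 5, against 694 with all rats.

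A further pair of genes was named after its values were seen. Slc25a22, a mitochondrial glutamate carrier, ranged from 117.0 to 192.0 array medians in heroin rats with a median of 129.0, and read 83.0, 76.2, 109.8, 138.6 and 97.1 in saline rats. Its change of 0.48 (SE 0.17, limma p = 0.0132, exact permutation p = 0.0281) lay just under the 1.4-fold limit of 0.4854, and it was 0.22 after quantile normalization. It passed when heroin rat 1, 2, 4 or 5 or saline rat 4 or 5 was left out, with changes of 0.50 to 0.61. Over all probes 694 passed with all rats and 343 to 2352 with each rat left out, the most without saline rat 5. Aldh5a1, succinate semialdehyde dehydrogenase, which completes the breakdown of GABA, ranged from 1.47 to 1.86 in heroin rats with a median of 1.74, and read 2.31, 2.07, 1.93, 1.92 and 1.90 in saline rats. Every heroin rat lay below every saline rat, which was so for 1 of the 29 tested genes of the list. It was so for 0.129% of all tested probes, with a scaling that put their median 0.18 higher in heroin rats. The reverse was so for 1.66%, and the shares after quantile normalization were not taken. Its change was -0.23 (SE 0.12, limma p = 0.0688, exact permutation p = 0.00433), and -0.35 after quantile normalization (limma p = 0.0108). Both changes were below 1.4-fold. Aldh5a1 was lower in 5 of 5 pairs, which the lack of overlap makes certain, and the low exact p largely follows from it too. Neither is further evidence beside the lack of overlap. The gene was named after its values were seen, and the exact p is not adjusted for the 29 genes.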

How the data were processed

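The authors deposited, for each of 11 arrays, Agilent Feature Extraction output (version 9.5.1.1 per the file headers) with a background-subtracted signal intensity for each spot, not scaled between arrays, and a table of relative values, a ratio per probe and rat for 23670 probes. Probe positions are those the array files give in build rn3, with no look at exons. Groups were taken from the sample titles.

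Control spots and those the software marked were dropped. Signals under 5 were set to 5 and put on the log2 scale, a probe's spots were averaged, and the 50th percentile over an array's non-control probes was subtracted. Probes scored well above background in at least 0.5 of their spots on all 11 arrays (25587) and usable on at least 2 arrays of each group (25555) entered a two-sided limma test (limma 3.58.1, R 4.3.3), with p-values adjusted after Benjamini-Hochberg. Single probes were also tested by exact two-sided permutation over all divisions of the rats into 6 and 5. The methods' t-test was Welch's form on the same values. The fit was tested on simulated data. With 6 and 5 arrays, precision is limited, and nothing in the labels says more on the independence of the animals than 1 array per rat.

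The members, the list of 44 further genes and the marker lists were chosen with earlier results of these data known. A gene is represented by its brightest tested probe, and for Glud1 the restriction to tested probes was decided after values were seen. All 9 genes and their probes are named, as are Slc38a1, Slc38a3, Slc17a8, any further listed gene past both limits and the 3 genes most correlated with Slc1a2 and with Slc17a7. A result for 1 further listed gene is not reported here. Of the 15 probes, 12 had accessions that matched a current RefSeq symbol, the same as the array's name. Alternatives were scaling to the 75th percentile or by quantiles, normexp background correction (offset 50), the authors' relative values, marked spots kept and other detection filters. Alternatives in the fit were eBayes with a trend and robust variances, the t-test, and the scan pair as a fixed or random block. Averaged probes and each rat left out were also run. Scaling to the median of detected probes was added after seeing the data. No identical arrays were found.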

Additional observations from a re-analysis of the deposited data

Results flagged for a closer look

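Among the probes and means described, 3 of 46 groups held a sample far from the others, where chance alone gives about 1 in 20. The glutamine carrier Slc38a1 read 2.13 array medians in heroin rat 6, with the next heroin rat at 5.42, a gap of 0.775 of the group's log2 range. In the saline group the same probe read 6.59 in rat 5, with the next rat at 4.76, a gap of 0.744 of the range. Aldh5a1 read 1.47 in heroin rat 3, with the next heroin rat at 1.72, a gap of 0.665 of the range. No probe of the 9 genes themselves held such a sample.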

How the results depend on the processing

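The count of member probes past both limits was 1, 0 with scaling to the 75th percentile, with quantile normalization or with scaling to the median of detected probes (the latter chosen after seeing the data), 2 with marked spots kept, and 0 to 2 with each rat left out. At the probe used for each gene, 0 genes passed, 1 (Glud1) with all probes of a gene averaged, and 0 to 1 with each rat left out. Of the further listed genes 0 passed, 1 (Slc25a22) with the replicate block, which leaves out heroin rat 1 and gives the change found without that rat and without the block, and 0 to 3 with each rat left out, the most without saline rat 5. Over all probes 694 passed, 1067 with detection in 1 group, 1560 with no detection filter, 308 with the methods' t-test, 126 with normexp and 457 with quantile normalization, and 343 to 2352 with each rat left out, the extremes being saline rats 2 and 5, with 393 without saline rat 3. The neuronal minus astrocytic change ranged from -0.02 to 0.21 with each rat left out, within its SD in all 19 settings.

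Among the probes of the 9 genes and the listed genes described, scaling turned the direction of 5, and over all 29 tested genes of the list quantile normalization turned 10. With the 75th percentile the changes were -0.013 for Glul A_44_P381069, -0.033 for Slc1a2 A_44_P226231, -0.092 for Slc1a2 A_44_P545654, -0.075 for Slc38a1 and -0.027 for Slc38a3. With quantile normalization they were -0.040 for Glul A_44_P381069, -0.125 for Slc1a2 A_44_P545654 and -0.065 for Slc38a1. With the median of detected probes they were -0.0055 for Slc1a2 A_44_P226231, -0.064 for Slc1a2 A_44_P545654 and -0.048 for Slc38a1. Each was smaller than its standard error. The median of all tested probes itself moved from 0.18 to -0.03, 0.01 and -0.01 under these 3 scalings.

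Same-numbered arrays shared a scan time by the file headers, but their deviations from the group means correlated at only -0.24 to 0.38 over all probes, and 2 of 5 numbers correlated best with their own partner. With the replicate block 805 probes passed both limits, 1 member probe among them, and no call among the 9 genes changed. With the scan as a random block 635 passed.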
